A study of Mus musculus with 8 samples.

Results

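The genes described here build and maintain the postsynaptic side of the neuromuscular junction (NMJ). They are *Agrn*, *Lrp4*, *Musk*, *Dok7* and *Rapsn*, which encode the agrin-MuSK signal and its adaptors, and *Colq* and *Ache*, which encode the synaptic acetylcholinesterase and its collagen anchor. The 7 genes were selected by symbol for their known roles at the synapse, with earlier results of these data already known, and all 7 were found among the 12551 genes counted. RNA was taken from whole tibialis anterior (TA) muscles of male mice at 7 weeks of age. The 4 WT mice carried the wild-type Klotho alleles, and the 4 KL-/- mice were homozygous for a Klotho null allele. The breeders were heterozygous for the null allele on a mixed genetic background, and the null allele is constitutive, so the deletion is not restricted to muscle. The study asked which transcripts accompany muscle wasting in KL-/- mice, and the comparison of genotypes for these 7 genes asks whether transcripts of the synapse-organizing machinery differed. *Kl* was not analysed here, so the genotypes of these libraries were taken from the sample labels. The paper genotyped its mice by PCR and could not detect Klotho protein or *Kl* mRNA in KL-/- muscle.

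Agrin is a heparan sulfate proteoglycan that the motor nerve terminal deposits in the synaptic basal lamina. It binds LRP4 on the muscle fiber, and LRP4 activates the receptor tyrosine kinase MuSK. DOK7 binds MuSK from the cytoplasm and is needed for its full activity, and rapsyn, the product of *Rapsn*, links the acetylcholine receptors (AChRs) into clusters under the nerve terminal. ColQ is a collagen tail that holds acetylcholinesterase in the synaptic cleft, where the enzyme ends each signal by splitting acetylcholine. Mutations in the genes of agrin, LRP4, MuSK, DOK7, rapsyn and ColQ cause congenital myasthenic syndromes, in which neuromuscular transmission fails. In an innervated fiber most of these transcripts are concentrated in the few nuclei beneath the synapse.

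The upstream sequence of these genes is shown because muscle and synapse transcription factors are known to act there through short elements, and because 2 AChR subunit genes that rose in KL-/- muscle are shown beside them. RefSeq windows on GRCm38.p6, the assembly also called mm10, were found for 4 of the 7 genes, *Musk*, *Dok7*, *Agrn* and *Ache*. *Lrp4*, *Rapsn* and *Colq* were not in the table. The sequences run 5′ to 3′ toward the start of transcription, take up to 250 bases before it and leave out bases that GENCODE annotates as exons. For *Dok7* and *Agrn* the first of 2 listed starts is shown. Capitals mark the letters CAGCTG, a form of the E-box bound by myogenic factors, and the letters CCGGAA, the core of the N-box bound by ETS factors, searched on both strands.
Musk, chr4:58285712-58285959, plus strand: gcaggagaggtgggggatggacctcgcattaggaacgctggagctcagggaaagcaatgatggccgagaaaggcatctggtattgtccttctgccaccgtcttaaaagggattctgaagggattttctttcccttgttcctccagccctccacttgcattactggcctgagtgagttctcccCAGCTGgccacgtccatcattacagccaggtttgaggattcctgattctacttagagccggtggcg
Dok7, chr5:35056516-35056765, plus strand: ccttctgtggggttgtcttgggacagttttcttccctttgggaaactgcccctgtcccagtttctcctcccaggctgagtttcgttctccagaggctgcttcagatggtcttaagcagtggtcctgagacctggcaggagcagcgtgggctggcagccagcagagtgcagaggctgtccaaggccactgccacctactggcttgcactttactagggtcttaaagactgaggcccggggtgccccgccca
Agrn, chr4:156197489-156197738, minus strand: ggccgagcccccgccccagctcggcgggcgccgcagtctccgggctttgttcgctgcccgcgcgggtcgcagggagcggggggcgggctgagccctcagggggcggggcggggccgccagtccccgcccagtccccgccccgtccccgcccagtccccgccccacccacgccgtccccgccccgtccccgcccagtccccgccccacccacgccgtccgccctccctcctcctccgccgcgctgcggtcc
Ache, chr5:137288058-137288253, plus strand: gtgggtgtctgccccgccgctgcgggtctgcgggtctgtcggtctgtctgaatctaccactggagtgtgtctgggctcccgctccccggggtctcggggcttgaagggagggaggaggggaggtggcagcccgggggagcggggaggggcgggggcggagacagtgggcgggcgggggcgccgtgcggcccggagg
Chrna1, chr2:73580339-73580588, minus strand: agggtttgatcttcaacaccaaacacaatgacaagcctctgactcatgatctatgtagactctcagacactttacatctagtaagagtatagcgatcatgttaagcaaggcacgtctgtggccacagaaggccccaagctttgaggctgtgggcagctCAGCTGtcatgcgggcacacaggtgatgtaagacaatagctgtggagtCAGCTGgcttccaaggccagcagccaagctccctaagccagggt
Chrne, chr11:70619217-70619444, minus strand: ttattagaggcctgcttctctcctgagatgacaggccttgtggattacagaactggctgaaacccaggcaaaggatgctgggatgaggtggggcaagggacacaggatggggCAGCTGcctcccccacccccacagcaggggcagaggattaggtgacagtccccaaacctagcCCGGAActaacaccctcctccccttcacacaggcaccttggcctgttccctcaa

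CAGCTG was found once in the *Musk* window, 68 to 63 bases before the start, and not in the windows of *Dok7*, *Agrn* or *Ache*. The *Chrna1* window held it at 92 to 87 and at 44 to 39 bases before the start. The *Chrne* window held CAGCTG at 138 to 133 bases and CCGGAA at 76 to 71 bases before the start. CCGGAA was in none of the 4 windows of the organizer and esterase genes. The window of *Chrnb1*, an AChR subunit gene that was not called, was also searched and held neither motif. *Chrnd*, another AChR subunit gene, was not in the RefSeq table. *Chrna1* and *Chrne* were shown because they rose, and a link between motifs and calls was not tested. Of 32851 windows of 250 bases in the RefSeq table, 13.0% held CAGCTG and 12.0% held CCGGAA, and the motifs do not overlap each other. These matches describe letters only. G and C made up 83.6% of the whole *Agrn* window and 53.6% of that of *Musk*.

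Library totals over all genes were 20860262 to 26501093 counts in WT and 22061526 to 29273758 counts in KL-/- mice. At this depth 136 to 1346 reads were counted per library for each of the 7 genes. The mean counts give counting errors of 2.93% to 7.24% (CV), against observed CVs of 2.80% to 22.2% within a genotype. For some genes the 2 were close, as for *Colq* in KL-/- mice (6.12% against 7.31%). The batch date in the labels is the same for 7 libraries and differs for KL-/- replicate 3, so batch and mouse cannot be told apart there. The labelled tissue was checked on 6 myofiber transcripts (*Acta1*, *Ckm*, *Myh4*, *Myh1*, *Tnnt3* and *Mylpf*), which summed to 114523 to 133620 CPM in WT and 130969 to 169125 CPM in KL-/- libraries. CPM are counts relative to the size of the library (the usual CPM unit) after edgeR's TMM scaling, and values are means ± SD with n = 4 mice per genotype.

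None of the 7 transcripts passed edgeR's quasi-likelihood test between genotypes, which called 14.0% of 12551 genes at a false discovery rate (FDR) under 0.05. The FDR of the 7 ran from 0.192 for *Colq* to 0.985 for *Ache*. At an unadjusted p under 0.05 the count was also 0 of 7, where 32.1% of all genes passed. The genotypes overlapped in each of the 7, where 19.7% of all genes had every KL-/- sample on 1 side of every WT sample. Per direction, the test called 7.35% of all genes higher and 6.67% lower, and 10.2% and 9.47% had no overlap with KL-/- higher and lower. In 4 of the 7 genes the log2 fold change (KL-/- over WT) was positive and in 3 it was negative, from −0.18 for *Lrp4* to 0.21 for *Colq*. Their median was 0.022, beside −0.016 over all genes, and their median absolute log2 fold change was 0.039, beside 0.18 over all genes. The standard errors (SE) of the 7 were 0.081 to 0.18, and their median of 0.12 was close to the 0.11 over all genes. DESeq2, limma-voom and the edgeR likelihood ratio test also called 0 of 7. The 7 transcripts together took 0.0146% to 0.0178% of the counts in WT and 0.0148% to 0.0160% in KL-/- libraries. Counts from whole muscle do not separate the number of synaptic nuclei from the RNA per synaptic nucleus.

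**Figure D1:**
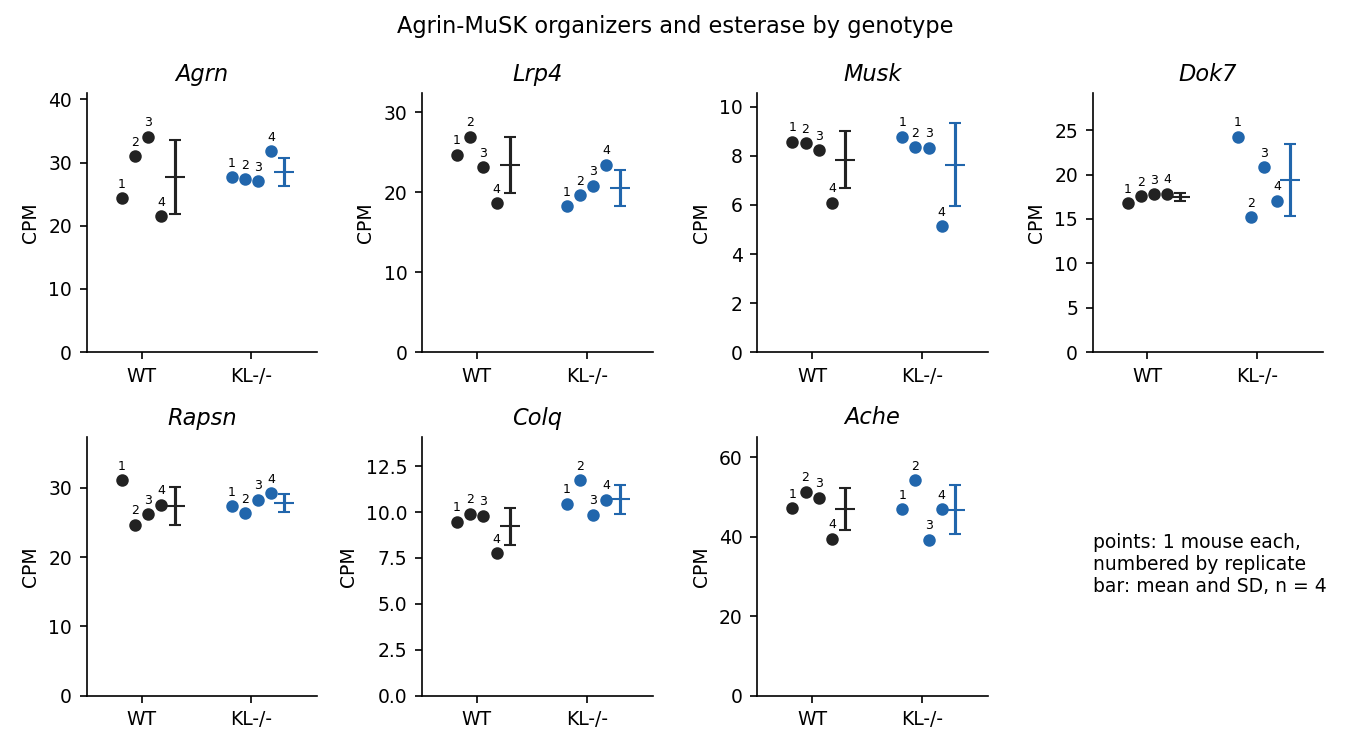
Level of each transcript in CPM (vertical axes, from 0) in 4 WT (black) and 4 KL-/- (blue) mice; each point is 1 mouse, numbered by replicate, and the bars give the mean and SD. The genotypes overlap in each of the 7 panels, and WT replicate 4 is the lowest WT sample in 5 of them.

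*Agrn* encodes the ligand, agrin (chromosome 4, 156165290 to 156197488 of mm10, minus strand, 36 separate exon blocks). It was at 24.4, 31.0, 34.1 and 21.5 CPM in WT replicates 1 to 4 and at 27.7, 27.4, 27.1 and 31.8 CPM in KL-/- replicates 1 to 4. The 4 KL-/- samples lay inside the WT range, and the WT samples were the more spread, with a CV of 21.0% against 7.72%. WT mice averaged 27.8 ± 5.83 CPM and KL-/- mice 28.5 ± 2.20 CPM. The log2 fold change was 0.039 (SE 0.14, quasi-likelihood FDR 0.868 in edgeR), with a 95% interval of −0.27 to 0.35. The sign turned to −0.066 without WT replicate 4. Agrin is also made outside the motor neuron, and counts per gene do not separate the neural splice form that organizes the synapse from the others.

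*Lrp4* encodes the agrin receptor (chromosome 2, 91457531 to 91513901 of mm10, plus strand, 37 exon blocks). It was at 24.7, 27.0, 23.1 and 18.6 CPM in WT replicates 1 to 4 and at 18.3, 19.6, 20.8 and 23.4 CPM in KL-/- replicates 1 to 4. The highest 3 WT samples lay above the lowest 3 KL-/- samples, and WT replicate 4 and KL-/- replicate 4 crossed over. The means were 23.4 ± 3.51 and 20.5 ± 2.20 CPM. Its log2 fold change of −0.18 (SE 0.12, quasi-likelihood FDR 0.316 in edgeR) was the most negative of the 7, and its 95% interval ran from −0.45 to 0.086. Without WT replicate 4 it was −0.28 with an FDR of 0.102, and it stayed negative in all 16 alternative settings. It was also the only 1 of the 7 with an unadjusted p under 0.05 in any alternative, which were the fit without WT replicate 4 and the fit on library totals.

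*Musk* encodes the receptor kinase (chromosome 4, 58285962 to 58374303 of mm10, plus strand, 16 exon blocks). It was at 8.57, 8.51, 8.24 and 6.10 CPM in WT replicates 1 to 4 and at 8.79, 8.35, 8.33 and 5.13 CPM in KL-/- replicates 1 to 4. In each genotype 3 samples lay close together and replicate 4 lay below them. The mice that share a number were not paired by the labels. WT mice averaged 7.85 ± 1.18 CPM and KL-/- mice 7.65 ± 1.69 CPM, and the log2 fold change was −0.037 (SE 0.18, quasi-likelihood FDR 0.907 in edgeR). The 95% interval of −0.44 to 0.37 was the widest of the 7, and the sign turned to 0.12 without KL-/- replicate 4.

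*Dok7* encodes the cytoplasmic activator of MuSK (chromosome 5, 35057084 to 35087831 of mm10, plus strand, 9 exon blocks). It was at 16.8, 17.5, 17.8 and 17.9 CPM in WT replicates 1 to 4 and at 24.3, 15.2, 20.8 and 17.0 CPM in KL-/- replicates 1 to 4. The WT samples were nearly level, with a CV of 2.80%, under the counting error of 4.78%. The KL-/- samples spread on both sides of them, with a CV of 21.0% against a counting error of 4.51%. The means were 17.5 ± 0.489 and 19.3 ± 4.05 CPM, and the log2 fold change was 0.15 (SE 0.13, quasi-likelihood FDR 0.475 in edgeR), with a 95% interval of −0.15 to 0.45. The value depended on single KL-/- mice, at 0.027 without replicate 1 and 0.25 without replicate 2 (FDR = 0.138).

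*Rapsn* encodes rapsyn, the AChR-clustering scaffold (chromosome 2, 91035627 to 91045729 of mm10, plus strand, 8 exon blocks). It was at 31.1, 24.7, 26.2 and 27.6 CPM in WT replicates 1 to 4 and at 27.3, 26.3, 28.3 and 29.3 CPM in KL-/- replicates 1 to 4. The KL-/- samples lay within the WT range, and their CV of 4.51% was near the counting error of 3.78%. The means were 27.4 ± 2.75 and 27.8 ± 1.25 CPM, and the log2 fold change of 0.022 (SE 0.081, quasi-likelihood FDR 0.877 in edgeR) was the most precise of the 7. Its 95% interval of −0.16 to 0.20 corresponds to 0.895-fold to 1.15-fold. An antisense transcript shares 4 exon bases with it.

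*Colq* encodes the collagen tail of acetylcholinesterase (chromosome 14, 31523084 to 31577383 of mm10, minus strand, 17 exon blocks). It was at 9.47, 9.90, 9.80 and 7.75 CPM in WT replicates 1 to 4 and at 10.5, 11.7, 9.86 and 10.7 CPM in KL-/- replicates 1 to 4. The levels of 3 KL-/- samples lay above every WT sample, and KL-/- replicate 3, whose batch date differs, lay just below WT replicate 2. WT mice averaged 9.23 ± 1.01 CPM and KL-/- mice 10.7 ± 0.781 CPM, a difference of 15.8% in the fit. The log2 fold change of 0.21 (SE 0.10, quasi-likelihood FDR 0.192 in edgeR) was the most positive of the 7, with a 95% interval of −0.022 to 0.44. The exact permutation test over samples gave p = 0.0571 (two-sided, n = 4 and 4), where the smallest possible p is 0.0286. It was positive in all 16 alternative settings, at 0.13 without WT replicate 4 and 0.25 without KL-/- replicate 3. Another annotated gene on the same strand, *Gm49387*, shares 7.02% of the exon bases, and how such reads were assigned is not stated.

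*Ache* encodes acetylcholinesterase itself (chromosome 5, 137288254 to 137294466 of mm10, plus strand, 5 exon blocks). It was at 47.2, 51.3, 49.8 and 39.5 CPM in WT replicates 1 to 4 and at 46.9, 54.2, 39.2 and 46.8 CPM in KL-/- replicates 1 to 4. The highest and the lowest of the 8 samples were both KL-/-, so the WT samples lay inside the KL-/- range. The means were 46.9 ± 5.25 and 46.8 ± 6.10 CPM, and the log2 fold change was −0.0037 (SE 0.11, quasi-likelihood FDR 0.985 in edgeR). The 95% interval of −0.25 to 0.24 corresponds to 0.841-fold to 1.18-fold.

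Per transcript length, *Ache* was the most abundant of the 7 and *Musk* the least. Counts per kilobase of exon, scaled to library size as for CPM (RPKM), were 21.2 ± 2.37 in WT and 21.2 ± 2.76 in KL-/- muscle for *Ache*, and 16.9 ± 1.70 and 17.2 ± 0.774 for *Rapsn*. *Ache* lay above *Rapsn* in each of the 8 libraries, by 1.02-fold to 1.52-fold, although their ranges overlapped. *Dok7* followed at 7.04 ± 0.197 and 7.79 ± 1.63 RPKM, below *Rapsn* without overlap. *Agrn* was at 3.76 ± 0.791 and 3.86 ± 0.298 RPKM and *Colq* at 3.26 ± 0.355 and 3.77 ± 0.276 RPKM. These neighbours did not differ beyond their spread, since *Agrn* was above *Colq* in 6 of 8 libraries. *Colq* was above *Lrp4* in each of the 8 libraries, although their ranges overlapped. *Lrp4*, at 2.48 ± 0.374 and 2.18 ± 0.234 RPKM, and *Musk*, at 2.14 ± 0.322 and 2.09 ± 0.462 RPKM, also overlapped, with *Lrp4* higher in 5 of 8 libraries. Coverage along a transcript can differ between genes, which these values do not correct.

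**Figure D2:**
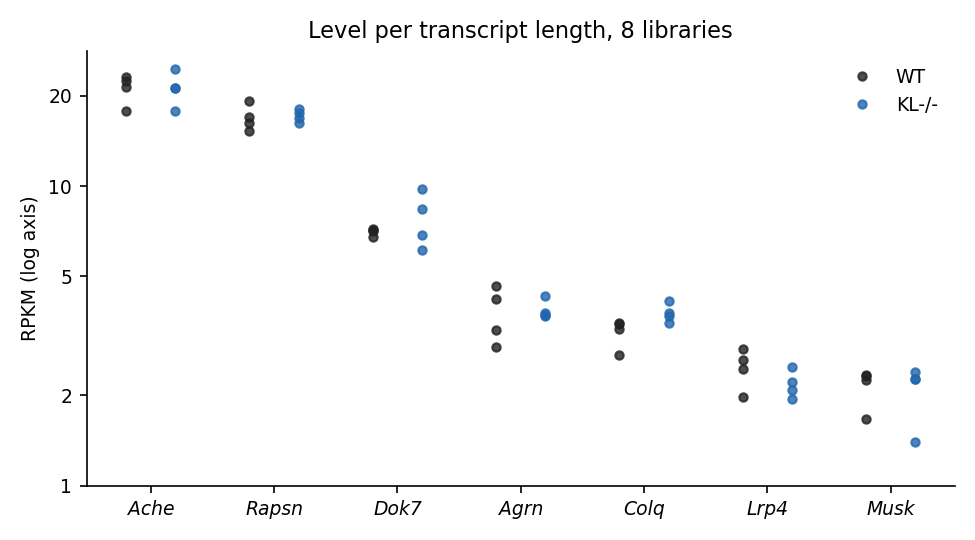
Level per transcript length in RPKM (vertical axis, logarithmic) of the 7 transcripts in order of their mean, with 1 point per mouse in WT (black) and KL-/- (blue). *Ache* and *Rapsn* lie highest, and the points of *Agrn* and *Colq*, and of *Lrp4* and *Musk*, overlap.

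Ratios of 2 transcripts within the same library do not depend on how libraries are scaled, and were computed after the values above had been seen. Of the 21 pairs among the 7 genes, 2 had ratios without overlap between genotypes. That is 9.52% of the pairs, under the 19.7% found over all pairs of genes that had reads in every library, so the count of such pairs is not a result about these genes. The *Colq* to *Ache* ratio, in counts per exon base, was 0.157, 0.151, 0.154 and 0.153 in WT replicates 1 to 4 and 0.174, 0.169, 0.196 and 0.178 in KL-/- replicates 1 to 4. The WT values were within a narrow range and every KL-/- value lay above them, a 1.17-fold difference. The WT mean was 0.154 ± 0.00253, a spread under the counting error of *Colq* alone in WT (CV of 6.60%). The lack of overlap thus rests on a WT range narrower than counting error would give. The two-sided exact permutation test gave p = 0.0286 for n = 4 and 4, the smallest it allows, and 0.300 after Benjamini-Hochberg adjustment over the 21 pairs. With each mouse left out, the log2 difference ran from 0.18 to 0.25. The *Lrp4* to *Colq* ratio was 0.712 to 0.821 in WT and 0.504 to 0.662 in KL-/- libraries, lower in each KL-/- mouse, with the same exact permutation p and the same adjusted p. Its log2 difference ran from −0.46 to −0.33 with each mouse left out, and the exact permutation p was 0.0571 in each of the 4 fits without a WT mouse. With 2 separated pairs of 21 the adjusted p could not be lower, so neither ratio could pass the adjustment.

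Of 4 measured AChR subunits, which rapsyn clusters, 2 rose and 0 fell, beside 7.35% and 6.67% of all genes. The list median was 0.60. *Chrna1* rose (log2 fold change 0.87, SE 0.18, quasi-likelihood FDR 0.0146) and *Chrne* rose (0.73, SE 0.12, quasi-likelihood FDR 0.00786), while *Chrnb1* was at 0.15 (FDR = 0.442) and *Chrnd* at 0.47 (FDR = 0.0703). *Chrng* was not analysed here. The *Chrne* to *Rapsn* ratio per exon base was 0.381, 0.499, 0.465 and 0.303 in WT replicates 1 to 4 and 0.655, 0.679, 0.637 and 0.692 in KL-/- replicates 1 to 4, a 1.64-fold difference without overlap. The ratios of *Chrna1* (1.84-fold) and *Chrnd* (1.39-fold) to *Rapsn* were also without overlap, and that of *Chrnb1* overlapped (1.10-fold). Over all pairs of genes that had reads in every library, 19.7% had ratios without overlap. Each of the 3 ratios without overlap had the smallest exact permutation p, 0.0286, and 0.0571 after adjustment over 6 ratios to a partner gene, which also held *Bche* to *Ache* and *Prima1* to *Colq*. With 4 mice per genotype and 3 separated ratios of 6, the adjusted p could not be lower, so none of these ratios could pass 0.05.

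**Figure D3:**
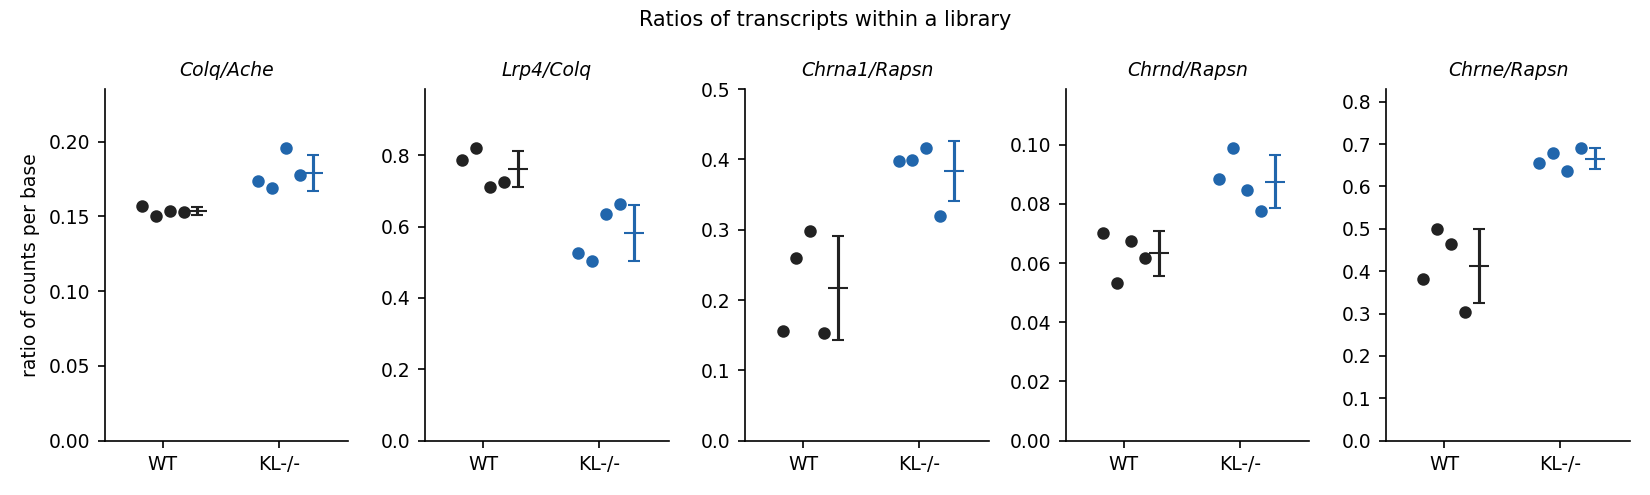
Ratio of 2 transcripts within a library, in counts per exon base (vertical axes, from 0), in 4 WT (black) and 4 KL-/- (blue) mice, with the mean and SD. The KL-/- values lie above the WT values in 4 panels and below them for *Lrp4* to *Colq*.

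Both other listed genes of the cholinesterase system passed the threshold, beside 14.0% of all genes. *Bche*, which encodes butyrylcholinesterase, a relative of acetylcholinesterase with broader substrates, was at 10.5, 10.9, 10.1 and 13.7 CPM in WT and at 13.6, 16.7, 18.2 and 16.2 CPM in KL-/- replicates 1 to 4. It rose with a log2 fold change of 0.51 (SE 0.12, quasi-likelihood FDR 0.0266 in edgeR), and WT replicate 4 overlapped KL-/- replicate 1. *Prima1*, which encodes the membrane anchor used by these enzymes in place of ColQ, was at 4.86, 3.56, 2.82 and 3.91 CPM in WT and at 16.7, 4.87, 14.4 and 6.22 CPM in KL-/- replicates 1 to 4. Its log2 fold change was 1.49 (SE 0.39, quasi-likelihood FDR 0.0340), and 2 KL-/- mice were far above the WT samples and 2 only slightly above them. *Bche* kept its call in 3 and *Prima1* in 2 of the 8 fits that left out 1 mouse. Over all genes, these fits called 762 to 2755 genes, against 1759 with every mouse, and most called fewer. Lost calls here and below are to be read beside that general loss. The ratio of *Bche* to *Ache* (1.44-fold) and of *Prima1* to *Colq* (2.14-fold) overlapped between genotypes (exact permutation p = 0.114 for each, 0.137 adjusted over 6 ratios), so a difference in response from *Ache* or *Colq* was not shown.

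**Figure D4:**
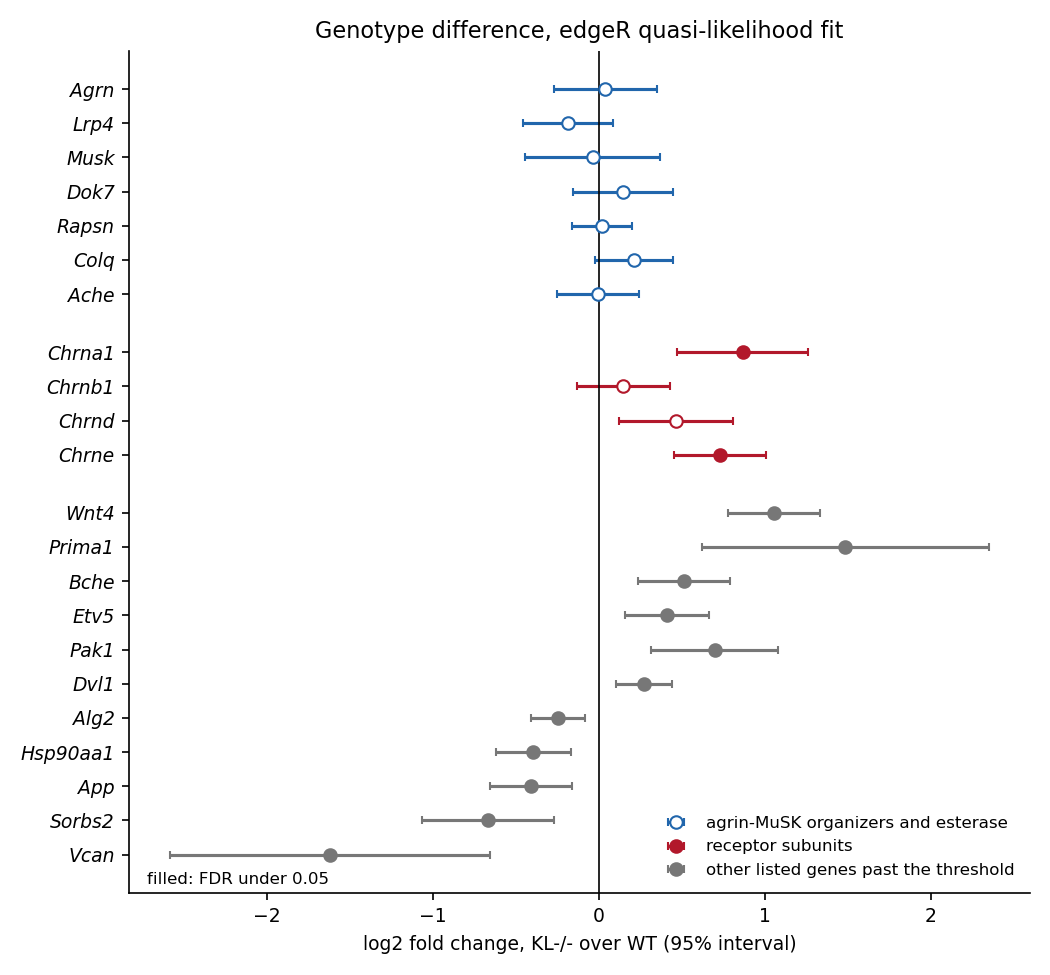
Log2 fold change of KL-/- over WT with its 95% interval (horizontal axis) for the 7 organizer and esterase genes (blue), 4 AChR subunits (red) and the other listed genes past the threshold (grey). Filled points had an FDR under 0.05, and the blue points are all open, with the upper ends of their intervals at 0.086 to 0.45.

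Among 10 measured Wnt, BMP and proteoglycan modulators of LRP4 and MuSK, 1 rose and 1 fell, beside 7.35% and 6.67% of all genes, and the list's median log2 fold change was −0.062. *Wnt4*, a Wnt ligand that can bind MuSK through its cysteine-rich domain, was at 19.4, 13.5, 14.0 and 14.1 CPM in WT and at 30.3, 32.0, 28.8 and 35.5 CPM in KL-/- replicates 1 to 4. Every KL-/- sample lay well above every WT sample. It rose 2.08-fold (log2 fold change 1.06, SE 0.12, quasi-likelihood FDR 0.00245) and kept its call in all 16 alternative settings. *App*, which encodes the amyloid precursor protein, a binding partner of LRP4, fell (log2 fold change −0.41, FDR = 0.0390). Its groups overlapped, and 2 of the 8 fits that left out 1 mouse kept the call. *Sost*, *Sostdc1* and *Mesd* were not analysed here.

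Of 26 measured kinases, adaptors and cytoskeletal partners downstream of MuSK, 2 rose and 2 fell, a share near the 14.0% of all genes called, with a list median of −0.044. *Pak1*, a kinase that links MuSK signaling to actin, rose (log2 fold change 0.70, SE 0.17, quasi-likelihood FDR 0.0280), and KL-/- replicate 2, at 55.9 CPM, was far above the other 3 KL-/- mice at 32.0 to 36.7 CPM. *Dvl1*, which encodes a Dishevelled adaptor that binds MuSK, rose by 0.27 (FDR = 0.0398), and without TMM factors its FDR was 0.139. *Hsp90aa1*, a chaperone subunit, fell by 0.39 on the log2 scale (FDR = 0.0321) and *Sorbs2*, an actin-linked adaptor, fell by 0.67 (FDR = 0.0370, edgeR's quasi-likelihood test for all 4). Leaving out 1 mouse at a time ended each of these 4 calls in 5 or more of 8 fits.

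A list of 19 genes covered the basal lamina, other matrix and dystroglycan partners, some of which bind agrin or ColQ. Of these, 1 fell past the threshold, beside 6.67% of all genes, and 0 rose. In 18 the log2 fold change was negative, and the list median was −0.59. The gene that fell was *Vcan*, the proteoglycan versican (log2 fold change −1.62, SE 0.43, quasi-likelihood FDR 0.0369), whose call held in 4 of the 8 fits that left out 1 mouse. *Hspg2*, which encodes perlecan, the proteoglycan that anchors ColQ, averaged 469 ± 96.5 CPM in WT and 332 ± 46.3 CPM in KL-/- mice (log2 fold change −0.50, FDR = 0.0535), just outside the threshold. The count of genes of this list that fell was 7 with DESeq2 and with library totals, 6 with the likelihood ratio test and 0 with limma-voom. *Dag1*, which encodes dystroglycan, an agrin-binding protein of the fiber surface, was at −0.22 (FDR = 0.0533). *Lama5*, the laminin alpha 5 chain found at the synapse, was the only positive gene of the list, at 0.30 (FDR = 0.113). *Hspg2*, *Dag1* and *Lama5* were named after their values had been seen. Marker lists of connective tissue and some other cells lay lower in the same libraries. Their median log2 fold changes were −1.02 for fibro-adipogenic progenitors, −0.95 for tendon, −0.92 for macrophages and −0.23 for endothelium. The other measured marker lists had positive medians. These were 1.63 for adipocytes, 0.74 for Schwann cells, 0.25 for myofibers, 0.22 for smooth muscle and pericytes and 0.15 for satellite cells. The part of any of these cells in the values of the basal lamina and other matrix genes was not tested.

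In the list of neuregulin receptors and ETS factors, which drive transcription in the synaptic nuclei, 1 of 10 measured genes rose and 0 fell. Of all genes, 7.35% were called higher and 6.67% lower, and the list median was 0.097. *Etv5*, an ETS factor enriched in synaptic nuclei, was at 15.3, 17.9, 19.2 and 13.7 CPM in WT and at 21.0, 24.3, 21.6 and 21.0 CPM in KL-/- replicates 1 to 4, without overlap. It rose by 0.41 on the log2 scale (SE 0.11, quasi-likelihood FDR 0.0394 in edgeR). Only 1 of the 8 fits that left out 1 mouse kept the call, although the log2 fold change was 0.33 to 0.49 across them. With library totals the FDR was 0.0881. Of 5 glycosylation enzymes of congenital myasthenic syndromes, *Alg2* fell by 0.24 (FDR = 0.0498), a call that none of the 8 fits without 1 mouse kept. The other 4 were not called, and the list median was −0.20. *Prss12*, which encodes neurotrypsin, a protease that cleaves agrin, was low, averaging 1.21 ± 0.290 CPM in WT and 0.754 ± 0.194 CPM in KL-/- mice (log2 fold change −0.68, FDR = 0.116). *Nrg1*, *Erbb4* and *Mmp3* were not analysed here.

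Some markers of other cells in whole muscle moved with genotype, where 7.35% of all genes were called higher and 6.67% lower. Of 9 Schwann cell markers 3 rose, among them *Mbp* and *Sox10*, and 0 fell, with a list median of 0.74 and a summed level of 56.5 to 98.4 CPM in WT and 104 to 125 CPM in KL-/- libraries, without overlap. Of 5 endothelial markers *Kdr* fell, and the sum was 369 to 556 CPM in WT and 332 to 366 CPM in KL-/- libraries. Of 5 markers of fibro-adipogenic progenitors, the fibroblast-like cells of muscle, *Dcn* and *Lum* fell, with sums of 481 to 1372 and 241 to 659 CPM. Of 5 tendon markers *Fmod* and *Thbs4* fell (sums of 181 to 224 and 55.3 to 142 CPM), and of 5 macrophage markers *Adgre1* fell (26.2 to 63.2 and 22.3 to 41.0 CPM). These lists did not move as a whole, since 1 tendon and 1 macrophage marker had a positive log2 fold change. Among the Schwann cell markers 1 had a negative value. None of 5 satellite cell, 5 smooth muscle and pericyte, 2 adipocyte and 6 myofiber markers passed the threshold. The 6 motor axon markers, such as *Chat* and *Nefl*, were not analysed here. *Agrn* is also transcribed by Schwann and endothelial cells, and the part of these cells in its level was not tested.

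The genes whose profiles over the 8 samples lay nearest to each member were found from the mean absolute difference of log2 CPM, each gene centred on its own mean, among the 11997 genes whose mean log2 CPM was 0 or more. For *Colq* they were *Irak1*, *Paqr4* and *Ckm*, at 0.036, 0.037 and 0.044. For *Ache* they were *Btbd3*, *Nsmf* and *Pgk1*, at 0.044, 0.050 and 0.059, and for *Rapsn* they were *Ndufb4*, *Pkia* and *Nudt4*, at 0.026, 0.034 and 0.034. *Agrn* was nearest to *Smad1*, *Ggt5* and *Nckap5l* (0.034, 0.062 and 0.063), *Lrp4* to *Hes6*, *Sppl2b* and *Them4* (0.048, 0.052 and 0.054) and *Dok7* to *Zmiz1*, *Mapre2* and *Dnajb4* (0.055, 0.056 and 0.058). *Musk* had the most distant neighbours, *Anxa4*, *Maml2* and *Gnai1*, at 0.088, 0.10 and 0.11. No member of the group was among the nearest 3 of another.

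The call of each of the 7 genes was the same under all 16 alternative settings, and only the size and sign of small values moved. The setting without a filter kept the same genes as the main fit and so repeats it. TMM factors were 1.02 to 1.05 in WT and 0.950 to 0.980 in KL-/- libraries, so without these factors the all-gene median of the log2 fold change moved from −0.016 to −0.13 and the 7 moved with it. Dropping the factors shifts all genes by nearly the same amount, so values relative to that median had to be nearly the same under both scalings. They were 0.23 for *Colq*, 0.16 and 0.17 for *Dok7* and −0.17 for *Lrp4*, and they do not test stability. WT replicate 4 was the lowest WT sample in 5 of the 7 genes (*Agrn*, *Lrp4*, *Musk*, *Colq* and *Ache*), and without it *Colq* was at 0.13, *Agrn* at −0.066 and *Lrp4* at −0.28.

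**Figure D5:**
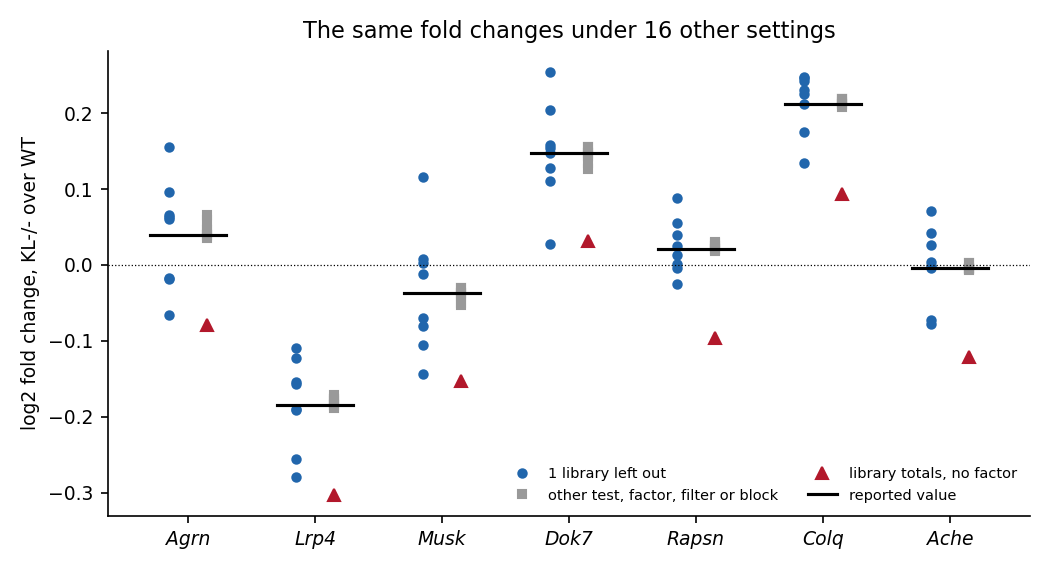
Log2 fold change of KL-/- over WT (vertical axis) for each of the 7 genes as reported (black line), with 1 library left out (blue), with another test, factor, filter or a replicate block (grey) and with library totals (red triangle). *Lrp4* lies below 0 and *Colq* and *Dok7* lie above 0 in each setting, and the other 4 genes cross 0.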

How the data were processed

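Libraries of 8 TA muscles were made from 100 ng of RNA each. Per the study's methods and processing notes, the authors used FastQC on the reads, STAR for alignment to mm10 without low-quality alignments, and featureCounts. The deposited values are raw, unnormalized counts for 12551 genes. The annotation version, the strand setting and the expression filter are not given in the sources used here. Sample titles gave genotype and replicate number.

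The tests were run with edgeR 4.0.16 under R 4.3.3 (TMM factors, quasi-likelihood test, genotype as the only term, Benjamini-Hochberg adjustment over all genes), and its default low-count filter kept all 12551 genes. Standard errors and 95% intervals were taken from the test statistic. The test was run on simulated counts with changes larger than those of the 7 genes, so that check does not cover differences of their size. Alternatives were DESeq2 1.42.0, limma-voom (limma 3.58.1), the likelihood ratio test, RLE factors, library totals, no filter or at least 10 counts in every sample, a replicate block, and each mouse left out. The alternative without a filter repeats the main fit, since the default filter removed no gene. Ratios were compared by an exact permutation test (two-sided, 70 relabelings). The 7 genes were taken by symbol with no threshold on measured values, but they and the lists were chosen with earlier results of these data known. Up to 4 called genes with the smallest FDR were named from each list, and the 3 nearest profiles for each member. A marker gene counted in its list is not reported here by itself. Counts of 20860262 to 29273758 per library gave counting errors of 2.93% to 7.24% for the 7 genes, which do not cover variation between mice. Exon overlaps and windows came from GENCODE M21 and RefSeq, both on the mm10 assembly.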

Additional observations from a re-analysis of the deposited data

Results flagged for a closer look

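Within a genotype, the lowest or highest of 4 samples was tested for its gap to the others relative to the range, against Dixon's 95% critical value. Among the 14 gene and genotype combinations, 3 passed, where chance flags about 5% of such groups. *Musk* was at 6.10 CPM in WT replicate 4, against 8.24 to 8.57 CPM in the other WT mice (gap over range 0.863). *Musk* was also low in KL-/- replicate 4, at 5.13 CPM against 8.33 to 8.79 CPM (0.875). *Agrn* was high in KL-/- replicate 4, at 31.8 CPM against 27.1 to 27.7 CPM (0.868). KL-/- replicate 4 and WT replicate 4 carry the batch date of most libraries, and the cause of these values was not tested.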

How the results depend on the processing

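The count of 0 of the 7 organizer and esterase genes at an FDR under 0.05 was the same in all 16 alternatives. Among them, the alternative without a filter repeats the main fit. Over all genes, 922 were higher and 837 lower. With library totals 492 were higher and 2127 lower, and with the replicate block 348 were higher and 323 lower. With each mouse left out in turn the counts were 404 to 1521 higher and 343 to 1234 lower. Same-numbered samples did not deviate together (correlations of deviations −0.15, 0.18, −0.37 and 0.017 for numbers 1 to 4, and 1 of 4 samples correlated best with its own number), so the block rests on a shared number only. In values that were not called, the sign turned for *Rapsn* (−0.096) and *Agrn* (−0.080) with library totals and for *Ache* with RLE factors (0.0027) and DESeq2 (0.0028). With each mouse left out the values ran from −0.14 to 0.12 for *Musk*, −0.025 to 0.088 for *Rapsn*, −0.066 to 0.15 for *Agrn* and −0.078 to 0.072 for *Ache*. The causes of these shifts were not tested. With the replicate block, 3 of the 13 called genes of the pathway lists (*Chrna1*, *Chrne* and *Wnt4*) kept their call and 10 lost it. The 95% intervals of the 7 genes reached from −0.45 (*Lrp4*) to 0.45 (*Dok7*) on the log2 scale and were narrowest for *Rapsn* (−0.16 to 0.20), so differences within them could be left unseen with 4 mice per genotype. The labels name no litters, so the tests took each mouse as an independent sample and could not account for litters.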
